A study of Mus musculus with 12 samples.

Results

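The mitochondrial ribosomal proteins were followed across a study of alternate day fasting (ADF) and of Crtc2, which coactivates the transcription factor Creb1, in mouse skeletal muscle. The members were all genes whose symbol was Mrpl or Mrps followed by a number, without pseudogene symbols, with at least 10 counts summed over the 12 libraries. They numbered 77 of the 22607 genes in the count table, 48 of the large subunit (Mrpl) and 29 of the small subunit (Mrps), and lay on 17 chromosomes. Of 82 matching symbols, 4 carried the pseudogene ending and Mrpl53 had 8 counts in all, while the lowest members were Mrps6, Mrps34 and Mrps33 with 4054, 4472 and 4795 counts. The rule used no difference between groups, though it was set with earlier results of these data known. All 77 members were among the 16007 genes tested.

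The 4 groups of 3 libraries were ADF Crtc2, ADF GFP, fed Crtc2 and fed GFP. All came from tibialis anterior, a muscle of the shin, of C57BL/6 males aged 13 weeks. ADF muscle was taken after 3 rounds of fasting on alternate days, and fed muscle came from mice with free access to food. Crtc2 muscle carried an expression vector for Crtc2 and GFP muscle a vector encoding green fluorescent protein without Crtc2. The labels give no promoter for the vectors. They do not say whether the libraries of a group are separate animals, nor whether both kinds of muscle came from the same animals, so a p-value here reflects the spread among libraries, part or all of which may be technical.

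Mitochondria keep a ribosome of their own, which translates the few proteins that mitochondrial DNA encodes, all of them subunits of the respiratory chain and ATP synthase. Its ribosomal RNAs come from mitochondrial DNA, but every protein is encoded in the nucleus, made in the cytosol and imported. Some of these proteins descend from bacterial ribosomal proteins and others are found only in mitochondria. Muscle fibres, which depend on oxidative phosphorylation for sustained work, need this ribosome to renew their respiratory complexes. The symbols do not follow the structure in every case. Mrps18a and Mrps30 sit in the large subunit, and Mrps36 is known as a component of the 2-oxoglutarate dehydrogenase complex rather than of the ribosome.

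Promoters were read because many nuclear genes for mitochondria share binding motifs for GABP (an ETS factor), NRF1 and YY1, and because Creb1, the partner of Crtc2, binds the cAMP response element (CRE). RefSeq promoter windows on GRCm38.p6, from 250 bases before to 50 bases after the start, existed for 68 members, which had 74 windows in all. The upstream 250 bases of Mrpl33 (chr5:31613701-31613950, plus strand) and Mrpl52 (chr14:54426659-54426908, plus strand) are shown, as the large subunit members with the lowest log2 fold changes under ADF in GFP muscle. The Mrpl33 window precedes a RefSeq start that lies inside the gene as annotated in GENCODE (chr5:31596935-31664384). Capitals mark the NRF1 core in Mrpl33, and in Mrpl52 the YY1 motif followed by the ETS motif, read on the minus strand.
Mrpl33: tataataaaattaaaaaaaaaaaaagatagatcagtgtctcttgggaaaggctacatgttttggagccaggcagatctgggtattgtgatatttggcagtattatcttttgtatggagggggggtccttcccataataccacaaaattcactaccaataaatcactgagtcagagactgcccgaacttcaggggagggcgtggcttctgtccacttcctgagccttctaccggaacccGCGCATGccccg
Mrpl52: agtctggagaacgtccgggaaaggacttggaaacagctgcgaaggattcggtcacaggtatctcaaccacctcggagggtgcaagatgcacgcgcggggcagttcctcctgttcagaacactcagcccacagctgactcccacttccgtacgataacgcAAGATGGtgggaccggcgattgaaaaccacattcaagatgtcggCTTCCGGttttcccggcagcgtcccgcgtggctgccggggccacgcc

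Each motif was searched on both strands. The ETS motif CCGGAAG was found for 36.8% of the 68 members, against 9.9% of the 27025 genes of the promoter table and 18.6% of the genes tested here. The YY1 motif AAGATGG was found for 19.1% of members, against 7.3% of all genes and 8.1% of genes tested. The NRF1 core GCGCATG was found for 11.8% of members, against 4.4% of all genes and 7.4% of genes tested. The palindromic CRE TGACGTCA was found for 2.9% of members, namely Mrpl16 and Mrpl49, against 2.0% of all genes and 3.4% of genes tested. The CRE half-site TGACG, which the palindrome contains, was found for 42.6% of members, against 23.0% of all genes and 33.7% of genes tested. The E-box CACGTG was found for 7.4% of members, against 8.1% of all genes and 11.4% of genes tested. A match is a run of letters in a window and not a bound site.

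The libraries held 24232450 to 34610417 counts. Of the counts from 2 to 21 in a library, 68.9 to 74.7% were even numbers. Counting both reads of a fragment would give even counts, which was not tested; a printed count may thus stand for fewer fragments, and with halved counts the same number of members was called in each comparison. The members took 0.372 to 0.599% of them. Levels are given as CPM, counts scaled to library size with trimmed mean of M values (TMM) factors. Crtc2 was read at 42.8, 40.6 and 31.4 CPM in ADF Crtc2 muscle, against 19.7, 16.1 and 23.6 CPM in ADF GFP muscle. In fed muscle it was at 64.9, 58.2 and 77.9 CPM with the Crtc2 vector, against 29.2, 17.3 and 24 CPM with GFP. The groups did not overlap under either diet, though the log2 fold changes of 0.95 ± 0.27 under ADF and 1.51 ± 0.28 in fed muscle had adjusted p of 0.127 and 0.134. All 6 muscle fibre markers listed had counts in every library.

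Levels among the members, set per kilobase of annotated exon so that genes can be compared, differed widely. Mrps21, a homologue of a bacterial small subunit protein, was highest at 150 CPM per kilobase over the 12 libraries, followed by Mrpl12 at 105, Mrpl2 at 104 and Mrps28 at 99.8. Mrpl12 forms the stalk that contacts translation factors, and Mrpl2 belongs to the conserved core of the large subunit. The lowest were Mrps35 at 3.88, Mrps10 at 4.44, Mrpl19 at 4.69 and Mrps30 at 5.35 CPM per kilobase. Mrpl12 and Mrpl2 lay close together, with group means of 124 to 186 CPM for Mrpl12 and 111 to 141 CPM for Mrpl2. Annotated exon length includes exons that muscle may not use, so a gene with long rare exons is placed too low. Exons of 29 members overlap an exon of another gene in the table, and 48 members have no such overlap.

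In GFP muscle most mitochondrial ribosomal protein genes were lower under ADF. The median log2 fold change of the 77 members was -0.43, against -0.01 over all genes tested. Of the 77 members 63 lay below 0 and 14 above, where 49.4% of all genes tested lay above 0. By edgeR's quasi-likelihood test with Benjamini-Hochberg adjustment over all genes, 7 members fell and 0 rose past an adjusted p of 0.05. That is 9.09% of members called lower, where 3.06% of all genes were called lower and 7.12% in either direction. The 3 ADF libraries lay below all 3 fed libraries for 28 members (36.4%), against 11.3% of all genes tested, and above them for Mrpl43 alone (1.3%), against 14.3%. At an unadjusted p under 0.05 stood 29 members and 3166 of all genes (19.8%). Without ADF GFP replicate 3 the number of members called was 3, all lower, where 265 of 16967 genes were called lower. Without ADF GFP replicate 2 or fed GFP replicate 3 it was 4, all lower, where 271 of 16973 and 419 of 17097 genes were. Among genes at a mean of 10 CPM or more it was 20, all lower, where 750 of 7839 genes were called lower and 625 higher. Fewer cells of a type and less RNA per cell cannot be told apart in these bulk samples.

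**Figure D1:**
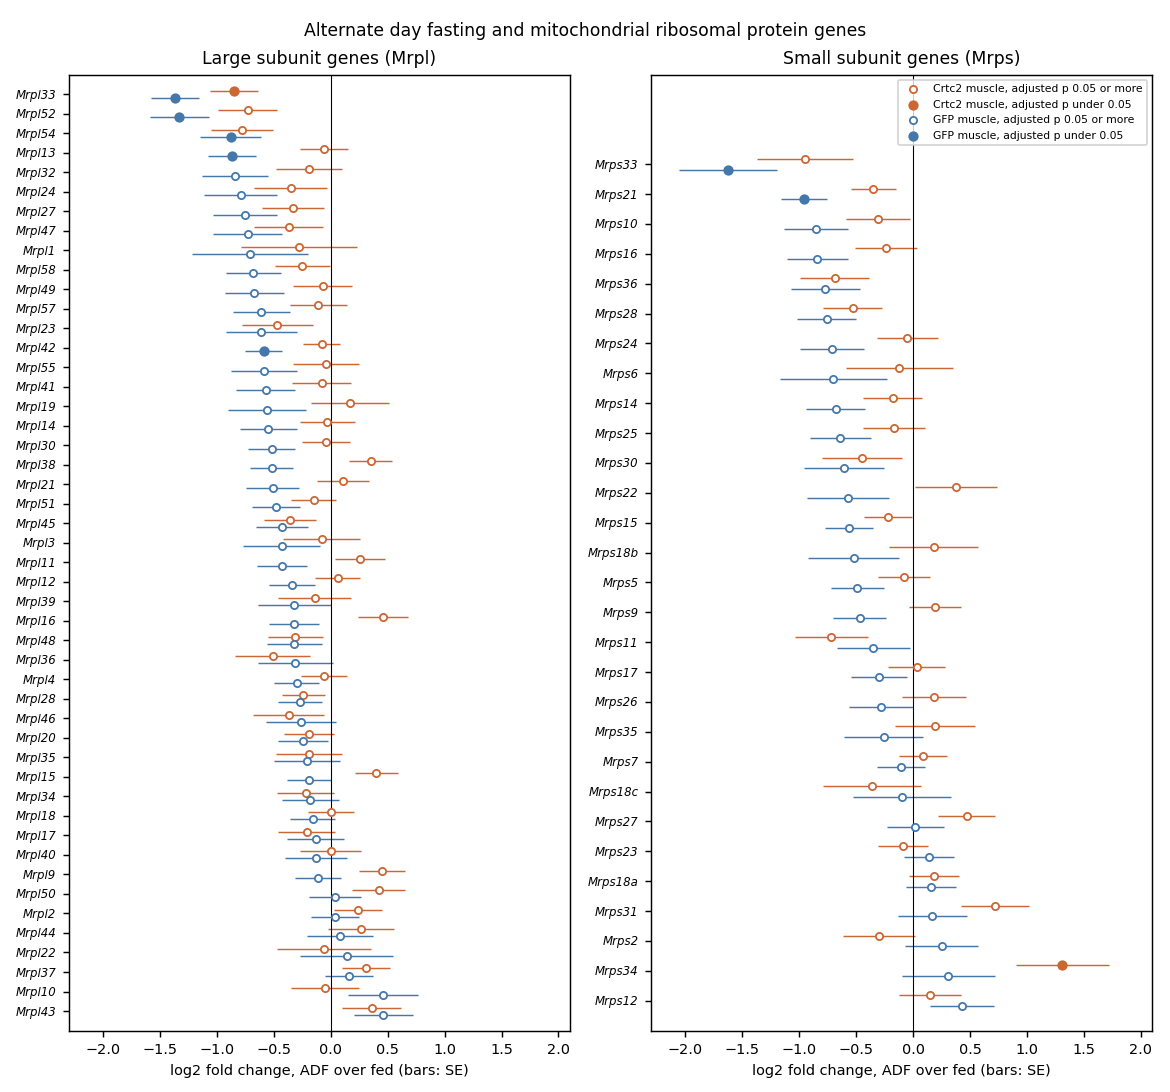
Log2 fold change of each member under ADF over fed muscle, with its standard error as a bar, in Crtc2 muscle (orange) and GFP muscle (blue), large subunit genes left and small subunit genes right. Members are ordered by the value in GFP muscle, and filled points passed an adjusted p of 0.05. Most blue points lie left of 0, with a median of -0.43, and the orange points scatter about -0.08.

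Of the large subunit, 5 of 48 members fell in GFP muscle and 41 of 48 were below 0, with a median log2 fold change of -0.43. Mrpl33, a short homologue of a bacterial protein (chr5:31596935-31664384, plus strand, GRCm38 as for all genes below), had 41.2, 41.8 and 42.9 CPM in ADF GFP muscle, against 114, 91.4 and 121 CPM in fed GFP muscle. The groups were far apart and the ADF libraries nearly equal. It fell by 1.37 ± 0.21 on the log2 scale (adjusted p = 0.000202), where the error is the standard error, as in every log2 fold change of the text. Mrpl52 (chr14:54426909-54429756), found only in mitochondrial ribosomes, had 20.2, 23.0 and 31.2 CPM in ADF GFP muscle, against 71.8, 53.5 and 61.3 CPM in fed GFP muscle. It fell to 0.399 of the fed level, a log2 fold change of -1.33 ± 0.26 (adjusted p = 0.0027), and no libraries overlapped.

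Mrpl13 (chr15:55534094-55557748), a homologue of a conserved ribosomal protein, had 59.8, 65 and 54.4 CPM in ADF GFP muscle, against 87.4, 99.3 and 140 CPM in fed GFP muscle. Its log2 fold change was -0.87 ± 0.21, with an adjusted p of 0.0125. Its exons share 4.2% of their length with Mtbp on the opposite strand, and the strand setting of the counting is not given in the sources used here. Mrpl42 (chr10:95480805-95501940), a protein specific to mitochondria, was the most abundant member in CPM. It had 207, 181 and 195 CPM in ADF GFP muscle, against 262, 298 and 316 CPM in fed GFP muscle. The change was the smallest called, -0.59 ± 0.16 on the log2 scale (adjusted p = 0.0274), and the libraries did not overlap. Mrpl54 (chr10:81264713-81266934), also specific to mitochondria, had 78.9, 41.2 and 39.2 CPM in ADF GFP muscle, against 94.1, 93.0 and 107 CPM in fed GFP muscle. It fell by 0.88 ± 0.27 on the log2 scale (adjusted p = 0.0491), with 1 ADF library near the fed ones. With each of the 6 libraries left out in turn, Mrpl33 and Mrpl52 passed in 6 fits of 6. Mrpl13 missed without ADF GFP replicate 1 or 3 or fed GFP replicate 3, with an adjusted p of up to 0.0896. Mrpl42 missed without any 1 of the ADF GFP libraries or fed GFP replicate 3, with up to 0.143. Mrpl54 passed only without ADF GFP replicate 1, with up to 0.239 in the other fits.

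Of the small subunit, 2 of 29 members fell in GFP muscle and 22 of 29 were below 0, with a median log2 fold change of -0.49. Mrps33 (chr6:39801804-39810988), found only in mitochondrial ribosomes, had the lowest log2 fold change of all members. It had 7.28, 8.28 and 6.6 CPM in ADF GFP muscle, against 16.9, 26 and 25.7 CPM in fed GFP muscle, without overlap. The log2 fold change was -1.63 ± 0.43, with an adjusted p of 0.0219. It passed only with fed GFP replicate 1 left out, of the 6 fits without 1 library, and had an adjusted p of up to 0.0961 in the others. Mrps21 (chr3:95862634-95871519), the highest member per kilobase, had 86.8, 62.8 and 67.0 CPM in ADF GFP muscle, against 160, 132 and 130 CPM in fed GFP muscle. It fell by 0.96 ± 0.20 on the log2 scale (adjusted p = 0.00371), no libraries overlapped, and it passed in 6 fits of 6.

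**Figure D2:**
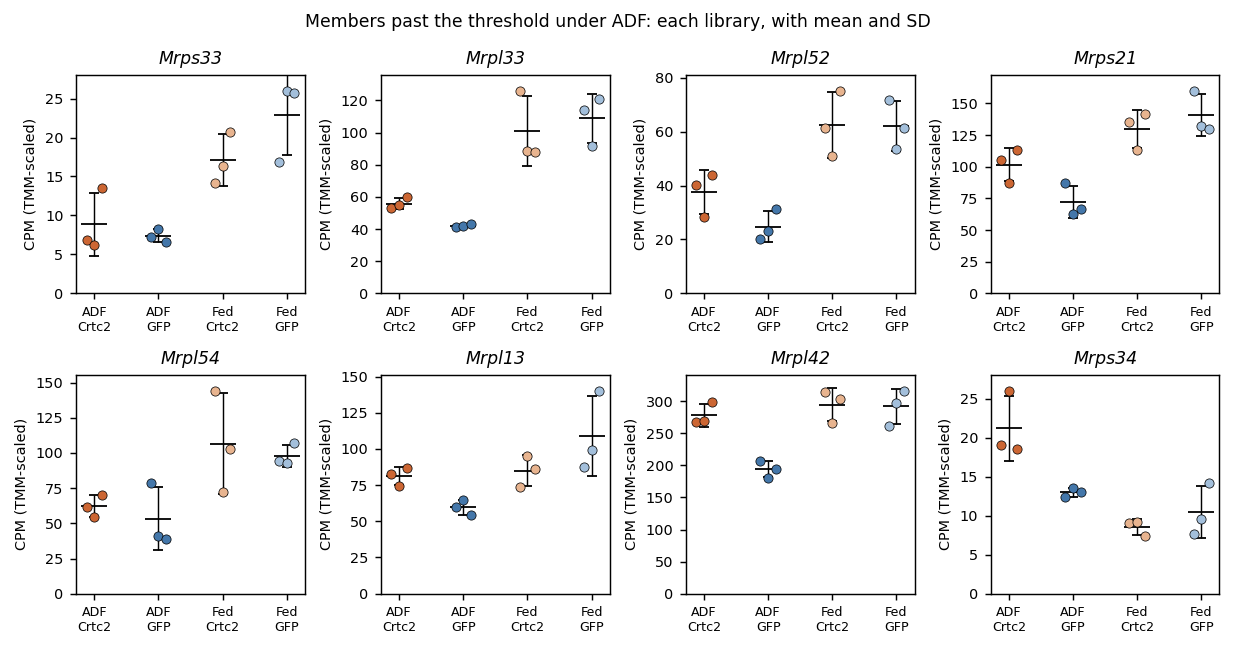
Level in each library (points, CPM with TMM-scaled library sizes) of the 8 members past an adjusted p of 0.05 under ADF with either vector, with the mean and SD of each group of 3. For Mrpl33 the 6 ADF libraries lie between 41.2 and 59.9 CPM and the 6 fed libraries between 87.7 and 126 CPM, while Mrps34 is highest in ADF Crtc2 muscle.

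Members that missed the threshold included proteins with a distinct role. Mrps12, part of the decoding centre, had a log2 fold change of 0.43 ± 0.28 in GFP muscle (adjusted p = 0.428), among the highest, with Mrpl43 and Mrpl10 at 0.46 each and Mrps34 at 0.31. Exons of Mrpl43 overlap those of Twnk on the opposite strand over 33.4% of their length. Mrpl45, which ties the ribosome to the inner membrane, was at -0.43 ± 0.23 (adjusted p = 0.331). Mrpl58, a peptidyl-tRNA hydrolase built into the large subunit, was at -0.68 ± 0.24 (adjusted p = 0.103). Mrpl12 was at -0.34 ± 0.20 and Mrps27, which binds RNA through pentatricopeptide repeats, at 0.02 ± 0.25. The 3 relatives of 1 bacterial protein spread from -0.52 ± 0.40 for Mrps18b to -0.10 ± 0.43 for Mrps18c and 0.16 ± 0.22 for Mrps18a. Mrps36, the dehydrogenase component, was at -0.77 ± 0.30 (adjusted p = 0.142). Mrps36-ps1, 1 of the pseudogenes left out, fell by 1.41 ± 0.41 (adjusted p = 0.0385), and reads of near-identical copies could be split between them.

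The 5 proteins of this ribosome that carry other symbols had a median log2 fold change of -0.58 in GFP muscle, and 0 of 5 passed in edgeR's test. Chchd1 and Aurkaip1, both of the small subunit, were at -0.64 ± 0.21 and -0.58 ± 0.20, and Gadd45gip1 of the large subunit was at -0.71 ± 0.28. Dap3, a GTP-binding small subunit protein, was at -0.13 ± 0.20 and Ptcd3, a pentatricopeptide repeat protein, at -0.06 ± 0.24. For Chchd1, Aurkaip1 and Gadd45gip1 all ADF libraries lay below all fed libraries, with unadjusted p of 0.0061, 0.0091 and 0.0189. For Dap3 and Ptcd3 the libraries overlapped.

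In Crtc2 muscle the members as a group lay close to genes in general under ADF. Their median log2 fold change was -0.08, against -0.13 over all genes tested, and among genes at a mean of 10 CPM or more it was -0.19, against -0.049. Only Mrpl33 fell and only Mrps34 rose, together 2.6% of members, where 11.0% of all genes were called. By direction, 1.3% of members were called lower, against 4.68% of all genes, and 1.3% higher, against 6.3%. The 3 ADF libraries lay below all fed libraries for 10 members (13.0%) and above for 8 (10.4%), against 15.7% and 14.8% of all genes tested. The 2 subunits were alike in their medians, at -0.08 for the large and -0.09 for the small.

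Mrpl33 had 52.9, 54.7 and 59.9 CPM in ADF Crtc2 muscle, against 126, 88.6 and 87.7 CPM in fed Crtc2 muscle. It fell to 0.554 of the fed level, -0.85 ± 0.21 on the log2 scale (adjusted p = 0.00866), and without fed Crtc2 replicate 1 the adjusted p was 0.0697. Mrps34 (chr17:24895116-24897502), a protein of the mitochondrial small subunit, had 19.1, 26 and 18.5 CPM in ADF Crtc2 muscle, against 9.07, 9.18 and 7.44 CPM in fed Crtc2 muscle. It rose 2.48-fold, by 1.31 ± 0.41 on the log2 scale (adjusted p = 0.0454), and the libraries did not overlap. In GFP muscle its log2 fold change was 0.31 ± 0.41. The Mrps34 call is fragile: it passed in 0 of 6 fits that left out 1 library, with an adjusted p of up to 0.19 without ADF Crtc2 replicate 2. Exons of Mapk8ip3 on the opposite strand overlap 63.4% of its exons, and those of Nme3 on the same strand, not analysed here, 37.0%, so its reads are uncertain.

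The other 6 members that fell in GFP muscle had log2 fold changes nearer to 0 in Crtc2 muscle and missed the threshold there in edgeR's test. They were picked by passing in GFP muscle, so values nearer to 0 elsewhere are expected from the pick alone. None of them passed in the interaction. In Crtc2 muscle under ADF, DESeq2 called Mrpl52 and Mrpl54 lower, each with an adjusted p of 0.0443. With Mrpl33 these were the 3 members that DESeq2 called lower, where 1354 of 15430 genes were. Mrps33 had 6.91, 6.16 and 13.5 CPM in ADF Crtc2 muscle, against 14.2, 16.4 and 20.7 CPM in fed Crtc2 muscle, a log2 fold change of -0.95 ± 0.42 (adjusted p = 0.172). Mrpl54 was at -0.78 ± 0.27 (adjusted p = 0.0675), with 61.8, 54.3 and 70.2 CPM in ADF Crtc2 muscle, against 144, 72.6 and 103 CPM in fed Crtc2 muscle. Mrpl52 was at -0.73 ± 0.26 (adjusted p = 0.0752), with 40.4, 28.5 and 43.9 CPM in ADF Crtc2 muscle, against 61.4, 50.9 and 75.2 CPM in fed Crtc2 muscle. For all 3 the ADF libraries lay below the fed ones. Mrps21 was at -0.35 ± 0.20, with 105, 87.0 and 113 CPM in ADF Crtc2 muscle, against 135, 113 and 142 CPM in fed Crtc2 muscle. Mrpl13 and Mrpl42 were close to 0, at -0.06 ± 0.21 and -0.08 ± 0.16. Beside Mrps34, the highest log2 fold changes were those of Mrps31 at 0.72 ± 0.30, Mrps27 at 0.47 ± 0.25 and Mrpl16 at 0.46 ± 0.22, with adjusted p of 0.137, 0.259 and 0.214.

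Under ADF, nearly every member was higher in Crtc2 than in GFP muscle, though no single member passed in edgeR's test. The median log2 fold change was 0.38, against -0.01 over all genes tested, and 76 of 77 members were above 0, against 48.4% of all genes. The exception, Mrpl36, was at -0.02 ± 0.33. With a filter at a mean of 10 CPM, which kept all 77 members, their median was 0.35, against 0.054 over all genes kept. By coding length, from the shortest range given below to the longest, members had medians of 0.37, 0.42 and 0.31. Other genes of those lengths at 10 CPM or more had 0.23, 0.17 and 0.14, shifted the same way by less. In edgeR's test 0 members passed and the smallest adjusted p was 0.168, that of Mrpl42, where 0.725% of all genes were called, 0.075% higher and 0.65% lower. At an unadjusted p under 0.05 stood 18 members, all higher in Crtc2 muscle, and 1809 of all genes (11.3%). DESeq2 called Mrpl42 alone (adjusted p = 0.0139), and of 15430 genes 126 higher and 430 lower. The 3 Crtc2 libraries lay above all 3 GFP libraries for 29 members (37.7%), against 9.6% of all genes tested, and below them for 0 members, against 11.8%. This comparison shares its ADF GFP libraries with that of ADF against fed in GFP muscle, in which the members were low, so the results are not independent.

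Mrpl42 had 267, 269 and 299 CPM in ADF Crtc2 muscle, against 207, 181 and 195 CPM in ADF GFP muscle. The libraries were well apart, with a log2 fold change of 0.52 ± 0.16. Mrpl38, a large subunit protein specific to mitochondria, had 114, 92.1 and 124 CPM in ADF Crtc2 muscle, against 83, 67.4 and 68.2 CPM in ADF GFP muscle. Its log2 fold change was 0.60 ± 0.19 (adjusted p = 0.203), again without overlap. The highest values were those of Mrps6 at 0.87 ± 0.47, Mrps34 at 0.71 ± 0.41, Mrps35 at 0.67 ± 0.35 and Mrps5 at 0.64 ± 0.23. Beside Mrpl36, the lowest were Mrpl44 at 0.02 ± 0.29, Mrps23 at 0.04 ± 0.22 and Mrps18c at 0.05 ± 0.43. Mrpl12 was at 0.58 ± 0.20 (adjusted p = 0.257), Mrpl58 at 0.50 ± 0.24 and Mrpl45 at 0.10 ± 0.23. The 5 members with other symbols had a median of 0.50, with Gadd45gip1 at 0.80 ± 0.28 and Chchd1 at 0.56 ± 0.21.

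In fed muscle the members were spread on both sides of 0 between the vectors. The median log2 fold change of Crtc2 over GFP was 0.07, against 0.01 over all genes. Above 0 lay 46 of 77 members, against 50.6% of all genes. In edgeR's test 0 members passed, as did 0.0% of all genes, and the smallest adjusted p of a member was 0.877. At an unadjusted p under 0.05 stood 4 members and 871 of all genes (5.44%), and DESeq2 called 0 members, and of all genes 35 higher and 29 lower. The Crtc2 libraries lay above all GFP libraries for 1 member (1.3%), against 4.7% of all genes, and below them for 2 (2.6%), against 3.84%. The extremes were Mrpl10 at 0.80 ± 0.31, Mrps2 at 0.73 ± 0.32 and Mrps12 at 0.60 ± 0.28 on one side and Mrps22 at -0.77 ± 0.36 and Mrps18b at -0.45 ± 0.40 on the other, with Mrps11 at 0.54 ± 0.32, Mrps33 at -0.42 ± 0.42 and Mrpl13 at -0.36 ± 0.21 next. Mrpl10, a stalk protein, had 53.1, 41.1 and 39.9 CPM in fed Crtc2 muscle, against 12.6, 29.8 and 34.7 CPM in fed GFP muscle. The groups did not overlap, and 1 GFP library was far lower than the other two.

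Whether fasting acts differently with the 2 vectors was asked by the interaction, the log2 fold change under ADF in Crtc2 muscle minus that in GFP muscle. Its median was 0.41 over the members, against -0.08 over all genes tested. Above 0 were 65 of 77 members, against 46.2% of all genes. With the filter at a mean of 10 CPM the interaction median was 0.40 for members, against 0.04 over all genes kept. In the same ranges of coding length, members had interaction medians of 0.49, 0.40 and 0.36. Other genes of those lengths at 10 CPM or more had 0.17, 0.13 and 0.09. No member passed in edgeR's test (0 of 77, with 0.0% of all genes), at an unadjusted p under 0.05 stood 7 members and 1239 of all genes (7.74%), and DESeq2 called 0 members, and of all genes 26 higher and 85 lower. The members with the smallest p were Mrpl38 at 0.88 ± 0.27 (adjusted p = 0.516), Mrpl13 at 0.81 ± 0.30 (adjusted p = 0.547) and Mrpl16 at 0.78 ± 0.32 (adjusted p = 0.596). Mrpl38 had 92.5, 74.6 and 91.6 CPM in fed Crtc2 muscle, against 102, 102 and 111 CPM in fed GFP muscle, the reverse of its order under ADF. Mrpl33, at 0.52 ± 0.29 (adjusted p = 0.697), fell with both vectors, and a difference between them was not shown. The highest interaction values were those of Mrps34 at 1.00 ± 0.58 and Mrps22 at 0.96 ± 0.51, and the lowest those of Mrps2 at -0.55 ± 0.45, Mrpl10 at -0.51 ± 0.43, Mrps11 at -0.36 ± 0.45 and Mrps12 at -0.28 ± 0.39.

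The members' summed level set the ADF GFP libraries apart. All 77 members summed to 5029 ± 203 CPM in ADF Crtc2 muscle, against 3859 ± 400 CPM in ADF GFP muscle (SD, n = 3 each). In fed muscle the sums were 5264 ± 483 CPM with Crtc2 and 5082 ± 217 CPM with GFP. The ADF GFP libraries held 4286, 3797 and 3494 CPM, below the 4820 CPM of the lowest of the other 9 libraries. Replicates 3, 2 and 1 had the lowest value of the 12 libraries for 28, 11 and 8 of the 77 members. The same count was not made over all genes tested. Both subunits took part: the large summed to 3495 ± 165 and 2672 ± 277 CPM in ADF Crtc2 and ADF GFP muscle, and the small to 1534 ± 38.9 and 1187 ± 123 CPM. In fed Crtc2 and fed GFP muscle the large subunit summed to 3637 ± 285 and 3529 ± 174 CPM and the small to 1628 ± 199 and 1554 ± 42.9 CPM. The ratio of large to small stayed between 2.14 and 2.34 in every library.

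Without TMM scaling the picture under ADF changed in part. The members took 0.439 ± 0.0244% of counts in ADF Crtc2 muscle, against 0.385 ± 0.0154% in ADF GFP muscle, and 0.560 ± 0.0503% in fed Crtc2 muscle and 0.546 ± 0.0397% in fed GFP muscle. Both ADF groups were thus below both fed groups as shares of counts. TMM factors were 0.8378 to 0.8936 in ADF Crtc2 muscle, against 0.8895 to 1.066 in ADF GFP muscle. With library totals alone the median of all genes moved to -0.425 for ADF over fed in Crtc2 muscle and that of the members to -0.368, so that members less all genes was 0.058, against 0.052 with TMM. In GFP muscle members less all genes was -0.452 with library totals and -0.425 with TMM. For Crtc2 over GFP under ADF it was 0.398 and 0.388, though with library totals 63 of the 77 members, not 76, were above 0.

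**Figure D3:**
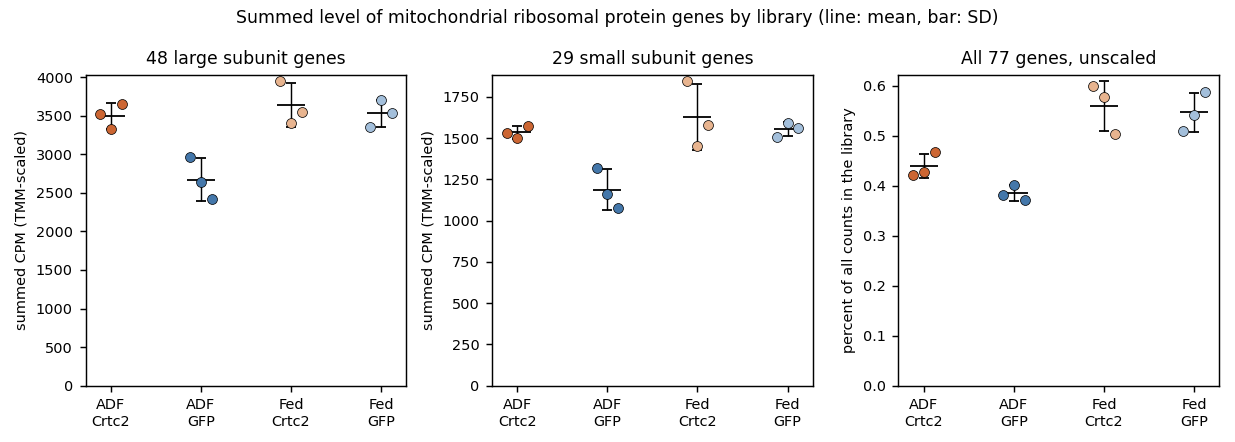
Summed level in each library (points) with group mean and SD, for the 48 large subunit genes and the 29 small subunit genes as TMM-scaled CPM, and for all 77 as a percentage of unscaled counts. In the scaled sums the 3 ADF GFP libraries lie below all others (large 2416 to 2966 CPM, small 1078 to 1320 CPM), and as unscaled shares both ADF groups lie below both fed groups.

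Summed markers of other cells differed between groups, macrophage and fibroblast markers with the highest means in ADF GFP muscle. The 7 macrophage markers summed to 157 to 240 CPM in ADF Crtc2 muscle, against 439 to 685 CPM in ADF GFP muscle, and to 186 to 262 CPM in fed Crtc2 muscle, against 323 to 377 CPM in fed GFP muscle. Of them, 3 of 7 (Csf1r, Lyz2 and Cd68) were lower in Crtc2 than in GFP muscle under ADF past the threshold, and Adgre1 was at 0 in some library. The 5 fibroblast markers summed to 608 to 938 CPM in ADF Crtc2 muscle, against 1200 to 2580 CPM in ADF GFP muscle, and to 447 to 1160 CPM in fed Crtc2 muscle, against 562 to 1520 CPM in fed GFP muscle. Dcn rose under ADF in GFP muscle (1 of 5), and no fibroblast marker was at 0. The 5 T cell markers summed to 0.95 to 3.48 CPM in ADF Crtc2 muscle, against 13.6 to 38.1 CPM in ADF GFP muscle, with each at 0 in some library. In fed muscle they summed to 3.24 to 39.2 CPM with Crtc2 and 18.1 to 56.8 CPM with GFP. Cd3g, 1 of 5, was called lower in Crtc2 than in GFP muscle under ADF. It was also called lower in ADF than in fed Crtc2 muscle. The 6 muscle fibre markers summed to 144000 to 163000 CPM in ADF Crtc2 muscle, against 110000 to 167000 CPM in ADF GFP muscle, which overlap, and Acta1 rose under ADF with both vectors. The 4 satellite cell markers summed to 8.72 to 22.9 CPM in ADF Crtc2 muscle, against 27.1 to 30.9 CPM in ADF GFP muscle, with 0 called and Myf5 and Calcr at 0 in some library. In fed muscle they summed to 13.3 to 19.3 CPM with Crtc2 and 16.3 to 40 CPM with GFP, a range that holds the ADF GFP values. The 5 endothelial markers summed to 224 to 274 CPM in ADF Crtc2 muscle, against 287 to 432 CPM in ADF GFP muscle, and to 330 to 465 CPM in fed Crtc2 muscle, against 258 to 526 CPM in fed GFP muscle. Kdr and Esam fell under ADF in Crtc2 muscle (2 of 5), and no endothelial marker was at 0. The 5 red blood cell markers summed to 69.9 to 176 CPM in ADF Crtc2 muscle, against 119 to 396 CPM in ADF GFP muscle, and to 71.1 to 214 CPM in fed Crtc2 muscle, against 74 to 152 CPM in fed GFP muscle, with 0 called and Alas2 at 0 in some library. The part of these cells in the members' levels was not tested.

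The members varied together across the 12 libraries to different degrees. The Pearson r of a member's log2 CPM with the mean of the other members had a median of 0.58, and 46 of 77 were above 0.5. Mrpl42 was highest at 0.934, followed by Mrpl51 at 0.892 and Mrpl58 at 0.858. Mrpl44 was lowest at -0.466, and Mrps31, Mrps34, Mrpl43 and Mrps27 were also below 0. Outside the members, the genes whose pattern was most like the members' mean were Uqcrq at 0.984, Uqcr10 at 0.972, Cox7c at 0.956, Ndufa6 at 0.956 and Cox6b1 at 0.953, all subunits of respiratory complexes. These values share libraries and groups and are given as a description over 12 libraries.

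Members with a short coding sequence had lower log2 fold changes under ADF. Over the 77 members, Spearman's rho of the log2 fold change with coding length was 0.405 in Crtc2 muscle and 0.355 in GFP muscle, against 0.074 and 0.204 over 7528 genes at 10 CPM or more. With annotated exon length, over which reads are counted, the members' rho was 0.127 in Crtc2 muscle and -0.072 in GFP muscle. The 26 members with 195 to 498 coding bases had a median of -0.59 in GFP muscle and held 6 of the 7 that fell. The 25 members with 501 to 753 bases had a median of -0.34 and held the other, Mrpl13. The 26 members with 756 to 1326 bases had a median of -0.31, with 0 called. Other genes at 10 CPM or more with the same lengths had medians of -0.37, -0.07 and 0.06, with 16.1, 4.06 and 4.08% called lower. By median, members thus lay below other genes of their length in each range in GFP muscle. Members called lower were 6 of 26, 1 of 25 and 0 of 26, a larger share than among other genes in the shortest range only. In Crtc2 muscle the members' medians were -0.17, -0.06 and 0.06, against -0.23, 0.01 and 0.14 for other genes. With an offset for annotated exon length Mrps21 and Mrpl54 missed the threshold in GFP muscle, with adjusted p of 0.075 and 0.262.

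**Figure D4:**
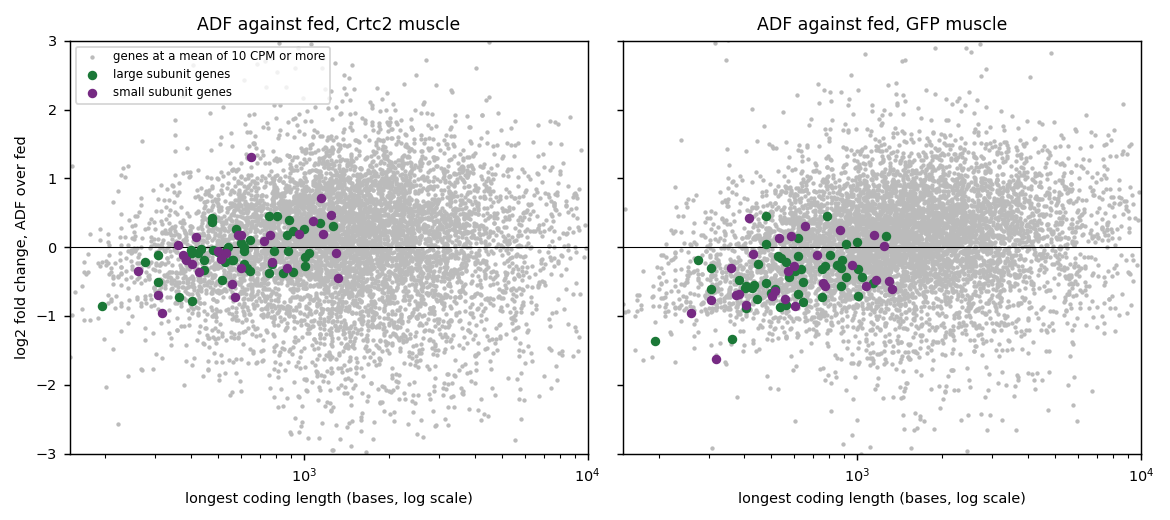
Log2 fold change of ADF over fed against the longest coding length (log axis) in Crtc2 muscle (left) and GFP muscle (right), for large subunit genes (green), small subunit genes (purple) and genes at a mean of 10 CPM or more (grey). The 26 shortest members, 195 to 498 bases, have medians of -0.17 in Crtc2 muscle and -0.59 in GFP muscle.

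No test was made of promoter motifs against the members that fell, and only counts are given. Of the 7 members that fell in GFP muscle 5 had a window. The ETS motif was found for 4 of them (Mrpl33, Mrpl52, Mrps21 and Mrps33), the YY1 motif for Mrpl42 and Mrpl52 and the NRF1 core for Mrpl33. The CRE half-site was found for 0 of 5. In Mrpl33, Mrps21 and Mrps33 the ETS letters lie in the 50 bases after the start.

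The rest of the machinery of mitochondrial translation was read beside its ribosomal proteins, without a test of the difference between lists. In GFP muscle under ADF the 13 tested translation factors had a median log2 fold change of 0.07, the 20 aminoacyl-tRNA synthetases -0.18, the 25 assembly and rRNA modification genes -0.08 and the 10 genes of mitochondrial DNA transcription 0.08. In Crtc2 muscle the medians were 0.26, 0.22, 0.20 and 0.75. For Crtc2 over GFP under ADF they were 0.24, 0.16, 0.26 and 0.36, above 0 as was the members' 0.38, with 0 genes of these lists called by edgeR. The interaction medians were 0.29, 0.15, 0.16 and 0.39. Taco1, which activates translation of a complex IV subunit, was the 1 of 13 factors called and rose with both vectors. It had 65.1, 34.3 and 67.3 CPM in ADF Crtc2 muscle, against 14.6, 14 and 18.6 CPM in fed Crtc2 muscle (log2 fold change 1.82 ± 0.36, adjusted p = 0.00175). In GFP muscle it had 64.1, 58.8 and 51.5 CPM under ADF, against 6.69, 20.4 and 9.27 CPM when fed (2.26 ± 0.37, adjusted p = 0.000424). ADF and fed libraries did not overlap with either vector.

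Polrmt, the RNA polymerase of mitochondrial DNA, had 66.9, 36.1 and 42.5 CPM in ADF Crtc2 muscle, against 17.2, 21.8 and 25.3 CPM in fed Crtc2 muscle. It rose with both vectors (adjusted p = 0.0219 in Crtc2 muscle), by 1.25 ± 0.33 on the log2 scale in GFP muscle (adjusted p = 0.0221). Slirp, which stabilises mitochondrial mRNAs, fell by 1.25 ± 0.31 in Crtc2 muscle (adjusted p = 0.00994) and was at -0.37 ± 0.30 in GFP muscle. The assembly genes held 1 call with each vector. Mrm2, a methyltransferase of the large rRNA, fell by 1.85 ± 0.58 in Crtc2 muscle (adjusted p = 0.0423), and Mettl17, which takes part in small subunit assembly, fell by 2.18 ± 0.57 in GFP muscle (adjusted p = 0.021). Lars2, the mitochondrial leucyl-tRNA synthetase, rose with both vectors, to 1330 ± 148 CPM in ADF Crtc2 muscle, against 133 ± 11.2 CPM in fed Crtc2 muscle. Its log2 fold changes were 3.32 ± 0.22 (adjusted p = 5.93e-09) and, in GFP muscle, 2.96 ± 0.22 (adjusted p = 3.11e-08). The annotated mouse gene is known to hold a stretch like ribosomal RNA, so its reads are uncertain. Iars2, the isoleucyl-tRNA synthetase, rose by 0.84 ± 0.21 in Crtc2 muscle (adjusted p = 0.00949).

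Among 10 regulators of nuclear genes for mitochondria, Esrra alone was called, and rose by 0.79 ± 0.20 in Crtc2 muscle under ADF (adjusted p = 0.012). Gabpa and Nrf1, whose motifs were searched above, were at 0.10 ± 0.33 and 0.12 ± 0.46 in Crtc2 muscle and at 0.02 ± 0.33 and -0.28 ± 0.46 in GFP muscle. Ppargc1a, a coactivator of mitochondrial biogenesis, was at 0.56 ± 0.38 in Crtc2 muscle and 0.51 ± 0.38 in GFP muscle, with overlapping libraries. None of these 3 passed with either vector.

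The nuclear subunits of oxidative phosphorylation had medians nearer to those of the members than the cytosolic ribosomal proteins did for Crtc2 over GFP under ADF. Of 80 tested subunits, 40 fell and 2 rose under ADF in GFP muscle (52.5% called), with a median of -0.64, and in Crtc2 muscle 4 fell and 11 rose (18.8%), with a median of -0.12. For Crtc2 over GFP under ADF their median was 0.47, and Ndufc1, a complex I subunit, rose (0.70 ± 0.16, adjusted p = 0.0492). Of 89 tested cytosolic ribosomal protein genes, 20 fell and 0 rose under ADF with each vector, with medians of -0.48 in Crtc2 muscle and -0.54 in GFP muscle. For Crtc2 over GFP under ADF their median was 0.14. RNAs encoded by mitochondrial DNA, including the ribosomal RNAs these proteins bind, were not analysed here.

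**Figure D5:**
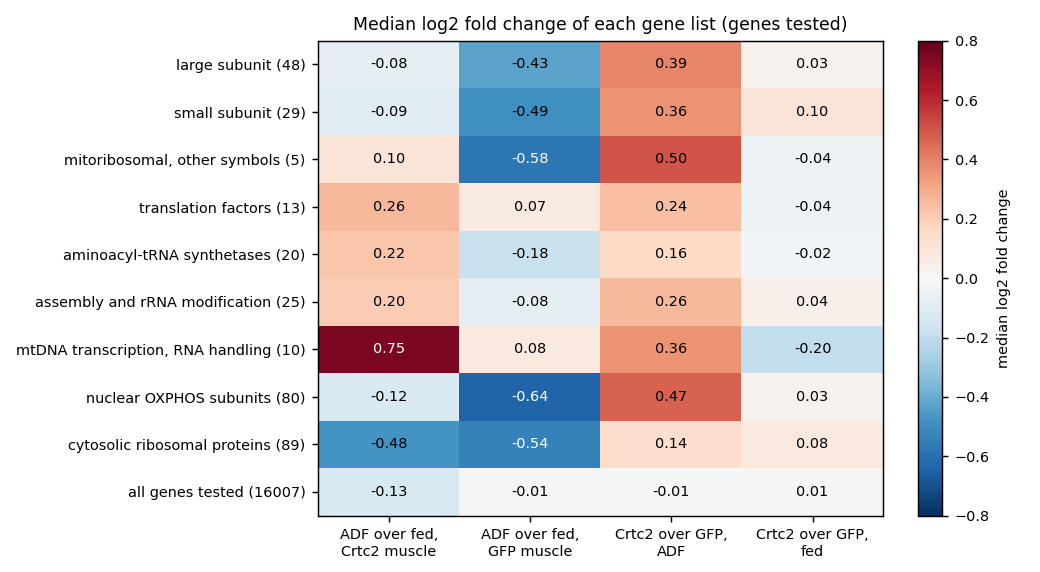
Median log2 fold change of each gene list (rows, with the number of genes tested) in 4 comparisons (columns), coloured from blue (below 0) to red (above 0). Large and small subunit genes lie near -0.43 and -0.49 for ADF over fed in GFP muscle and near 0 in Crtc2 muscle, and cytosolic ribosomal proteins lie near -0.5 with both vectors.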

How the data were processed

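The authors deposited unnormalized whole-number counts for each Ensembl gene. Tools in the submitters' processing notes are SAMtools 1.7, HISAT2 2.0.5, Subread 1.6.1 with featureCounts, and DESeq2 1.18.1, and the builds are mm10 and GRCm38. Annotation release and strand setting are not given in the sources used here. Per the labels' protocols, library preparation followed an Illumina TruSeq Stranded mRNA protocol and the directional NEBNext Ultra II kit, with no word on which libraries, so a preparation that followed the groups cannot be told apart from them. No column lacked a sample (0 of the table), 1 row without a symbol was left out of the members, and no libraries of a group were duplicates.

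The test was edgeR 4.0.16 under R 4.3.3, with TMM scaling, filterByExpr, a robust quasi-likelihood fit of 4 group means over 12 libraries, and Benjamini-Hochberg adjustment over 16007 genes with a threshold of 0.05. Standard errors are the log2 fold change over the root of F, and log CPM used a prior count of 2. The fitting code was tested on simulated data. The smallest exact two-sided p for 3 against 3 libraries is 0.1. Positions and lengths are from GENCODE M21 on GRCm38, which held 22582 of 22607 genes, and promoters from RefSeq on GRCm38.p6. Alternatives were DESeq2 1.42.0, other scalings and filters, length and GC offsets, the replicate block, halved counts and leaving out each library.

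Members, lists and motifs were chosen with earlier results of these data known. Named members were those past the threshold, the 4 highest and lowest log2 fold changes in each comparison, the 4 highest and lowest per kilobase, the 3 smallest interaction p, those at the count minimum and a fixed list of members with known roles. From other lists the called genes were named. Gabpa, Nrf1, Ppargc1a and members named for their correlation were added after their values were seen.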

Additional observations from a re-analysis of the deposited data

How the results depend on the processing

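Each member had at least 4054 counts over the 12 libraries, and how depth bears on the number of calls was not tested. For ADF over fed in GFP muscle, 11 members were called, all lower, with library totals in place of TMM, where 596 of 16007 genes were called lower. The members' median was then -0.56, against -0.107 over all genes. The DESeq2 test called 10 members, all lower, where 795 of 15157 genes were called lower. These were the 7 main calls with Mrpl38, Mrps10 and Mrps16. The GC offset called 10 members, all lower, where 592 of 16007 genes were called lower. A fit of only the 2 groups compared called 5, all lower, where 393 of 14394 genes were. A filter at a mean of 10 CPM gave 20 calls, all lower, with all 7 of the main calls among them, where 750 of 7839 genes were called lower. Leaving out 1 library gave 3 to 6 calls and medians of -0.48 to -0.32, with 4 calls without ADF GFP replicate 2, 3 without ADF GFP replicate 3 and 4 without fed GFP replicate 3. All were lower, in fits where 265 to 516 of all genes were called lower. Mrpl33 and Mrpl52 passed in 17 of 17 alternatives, Mrps21 in 15, Mrpl13 in 14, Mrpl42 in 12, Mrps33 in 11 and Mrpl54 in 9. In Crtc2 muscle, 1 member was called with DESeq2 size factors, with no filter, with the length offset, and over members without exon overlap, which was an alternative chosen after seeing the data. It was lower each time, and the first 3 settings called 787 of 16007, 712 of 20255 and 785 of 16007 genes lower. With library totals 7 members were called in Crtc2 muscle, all lower, where 1234 of 16007 genes were called lower. The median was then -0.37 for members and -0.425 over all genes. The DESeq2 test called 3 members lower and 1 higher, where 1354 and 1151 of 15430 genes were. The 10 CPM filter also called 3 lower and 1 higher (median -0.19), where 946 of 7839 genes were called in each direction. Leaving out 1 library gave 0 to 3 calls and medians of -0.15 to -0.03, with 0 calls without fed Crtc2 replicate 1. These calls were all lower, in fits where 471 to 570 of all genes were called lower. For Crtc2 over GFP under ADF, library totals gave a median of 0.18, against -0.217 over all genes. DESeq2 called 1 member, which was higher, where 126 of 15430 genes were called higher. Leaving out 1 library gave 0 calls and medians of 0.29 to 0.46. For the interaction, library totals gave a median of 0.22, against -0.275 over all genes. Members less all genes was then 0.497, against 0.494 with TMM. Leaving out 1 library gave interaction medians of 0.30 to 0.46. In fed muscle, leaving out 1 library gave medians of -0.04 to 0.09. Same-numbered libraries correlated at -0.123 to 0.094 in their deviations from group means, and libraries of different number at -0.138 to 0.186. With 3 libraries a group this cannot settle whether replicate numbers mark shared animals. With the replicate block 8 members were called for ADF over fed with GFP and 1 with Crtc2, and with the length offset as well 6 and 1. All were lower, where of 16007 genes the block called 449 and 686 lower, and with the length offset as well 391 and 729. The causes of these changes were not tested.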
